A study of Mus musculus with 4 samples.

Results

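The transcripts described here encode 10 glycolytic enzymes of mouse embryonic stem cells, namely the hexokinases Hk1 and Hk2, glucose-6-phosphate isomerase Gpi1, the phosphofructokinases Pfkl and Pfkp, aldolase Aldoa, phosphoglycerate kinase Pgk1, enolase Eno1 and the lactate dehydrogenases Ldha and Ldhb. They were chosen by symbol because stem cell glycolysis has been reported to depend on the miR-290 cluster of miRNAs, and all 10 were found among the 13815 genes of the mRNA table. The study sequenced polyadenylated RNA from Dgcr8-/- cells, from Dicer-/- cells and from WT cells of the V6.5 line, and small RNA from WT cells. V6.5 is an established mouse embryonic stem cell line, and the labels give V6.5 as the strain of all 4 samples. All cultures were kept in DMEM with ESGRO, a preparation of leukaemia inhibitory factor, and 15% fetal bovine serum. No other treatment is given, and the labels describe neither the alleles nor how many clones were used. DGCR8 is the partner of Drosha in the nuclear complex that frees the hairpin from a primary miRNA transcript, and Dicer cuts that hairpin into the mature duplex. Each of these 4 groups has 1 library. No test between genotypes was therefore made, no difference below has a replicate check, and cell line, culture and genotype cannot be told apart.

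Glycolysis splits glucose into pyruvate in the cytosol. Hexokinase traps glucose as glucose-6-phosphate, the isomerase and phosphofructokinase turn it into fructose-1,6-bisphosphate, and aldolase cleaves that sugar. The later enzymes make ATP and pyruvate, which lactate dehydrogenase reduces to lactate. Pluripotent stem cells are known for a high rate of glycolysis even with oxygen present. The transcription factors HIF-1 and MYC are known activators of many of these genes. In mouse embryonic stem cells, miR-290 cluster miRNAs were reported to act on glycolysis through Mbd2, a methyl-CpG-binding repressor of Myc.

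The miRNAs of that cluster made up most of the WT small RNA table. Its 14 listed mature miRNAs had 2026525 of 2594949 reads, a share of 78.1% (exact Clopper-Pearson 95% interval 78.0 to 78.1). The sequences below, from RefSeq on GRCm38.p6, are shown because the reported role concerns the seed that several of them share; miR-293-3p is shown as the member with most reads. Capitals mark bases 2 to 8, the seed.
miR-294-3p, chr7:3220691-3220712, plus strand: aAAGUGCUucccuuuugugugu
miR-291a-3p, chr7:3218968-3218989, plus strand: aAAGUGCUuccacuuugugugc
miR-295-3p, chr7:3220815-3220837, plus strand: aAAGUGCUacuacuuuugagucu
miR-291b-3p, chr7:3219529-3219550, plus strand: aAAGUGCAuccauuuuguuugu
miR-293-3p, chr7:3220390-3220411, plus strand: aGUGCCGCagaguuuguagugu
The first 3 share the seed AAGUGCU, and miR-291b-3p has AAGUGCA. The seed of miR-293-3p is GUGCCGC. Of all small RNA reads, miR-294-3p had 10.2%, miR-291a-3p 9.16%, miR-295-3p 6.31%, miR-291b-3p 0.167% and miR-293-3p 38.5%. miR-292-3p, of the same cluster, had 7.64% and no RefSeq sequence of the same name, so its seed is not shown. Small RNA of the knockouts was not analysed here.

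The mRNA libraries hold 11123498 counts for the Dgcr8 knockout, 12309100 for the Dicer knockout and 9931625 for WT. Levels are given as CPM, the counts scaled to the total of each library, without correction for transcript length, so they compare libraries and not genes. The targeted genes were low in the libraries labelled as their knockouts, though not at 0. Dgcr8 had 20.9 CPM in the Dgcr8 knockout and 52.7 CPM in WT, and Dicer1 had 20.1 CPM in the Dicer knockout and 79.9 CPM in WT. All 8 markers of pluripotent stem cells were present in each library, with summed levels of 7620.4 CPM in the Dgcr8 knockout, 8271 CPM in the Dicer knockout and 10040.5 CPM in WT. Single markers did not all follow the sums. Against WT, 6 of the 8 were higher and 2 lower in the Dgcr8 knockout, with a median log2 ratio of 0.29. In the Dicer knockout 3 were higher and 5 lower, with a median of -0.07. Of 10 markers of fibroblasts, which can be carried along as feeder cells, 5 were in the table. Their summed level was 33.3 CPM in the Dgcr8 knockout, 10.9 CPM in the Dicer knockout and 63.5 CPM in WT. Col1a1 had 0.539 CPM, 0.406 CPM and 9.77 CPM in those libraries, and S100a4 was at 0 in the Dgcr8 knockout. Of 6 endoderm markers 3 were in the table, with summed levels of 0.989 CPM, 0.731 CPM and 5.94 CPM in the same order, and Gata6 was at 0 in the Dicer knockout. Of 6 neural markers 5 were in the table, with 226 CPM, 207 CPM and 147 CPM. The fibroblast and endoderm sums were lower and the neural sum higher in both knockouts, and their part in the results below was not tested. Every listed gene reaches 10 counts in a library. All 3 endoderm genes were below 1 CPM in both knockouts and were listed through WT alone, so their sum had to be lower. Col1a1 was listed through WT alone as well, so part of the fibroblast difference was fixed in the same way.

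Most of the 10 glycolytic enzyme transcripts were lower in the knockouts than in WT, more so in the Dicer knockout. Together they held 0.887% of the counts in the Dgcr8 knockout (95% interval 0.881 to 0.892), 0.711% in the Dicer knockout (0.706 to 0.716) and 1.23% in WT (1.22 to 1.23). Intervals here and below cover counting error only. In this bulk RNA, fewer cells with a transcript and less RNA per cell cannot be told apart. Against WT, 7 of the 10 had a log2 ratio below 0 in the Dgcr8 knockout and 9 of the 10 in the Dicer knockout. The median log2 ratio of the 10, taken on log2(CPM + 1), was -0.55 in Dgcr8-/- cells and -1.03 in Dicer-/- cells, beside medians of 0.11 and 0.10 for all genes that reached 1 CPM in at least 1 of the libraries compared. At a 2-fold difference, 1 of the 10 was lower in the Dgcr8 knockout than in WT and 0 were higher, while 8.02% of 13223 genes were lower and 14.3% higher. In the Dicer knockout 5 of the 10 were at least 2-fold lower than in WT and 1 was higher, while 9.7% of 13403 genes were lower and 16.0% higher. All 10 were above 50 CPM in every library, where counting error is small. Of the genes that reached this level in a library, 4.58% stood lower by 2-fold with Dgcr8 knocked out (11.9% higher), and 6.18% with Dicer knocked out (12.9% higher). At 1.5-fold, 4 members were lower and 1 higher in Dgcr8-/- cells, beside 17.7% and 27.1% of all genes, and 6 were lower and 1 higher in Dicer-/- cells, beside 19.7% and 28.0%. Both comparisons use the same WT library.

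**Figure D1:**
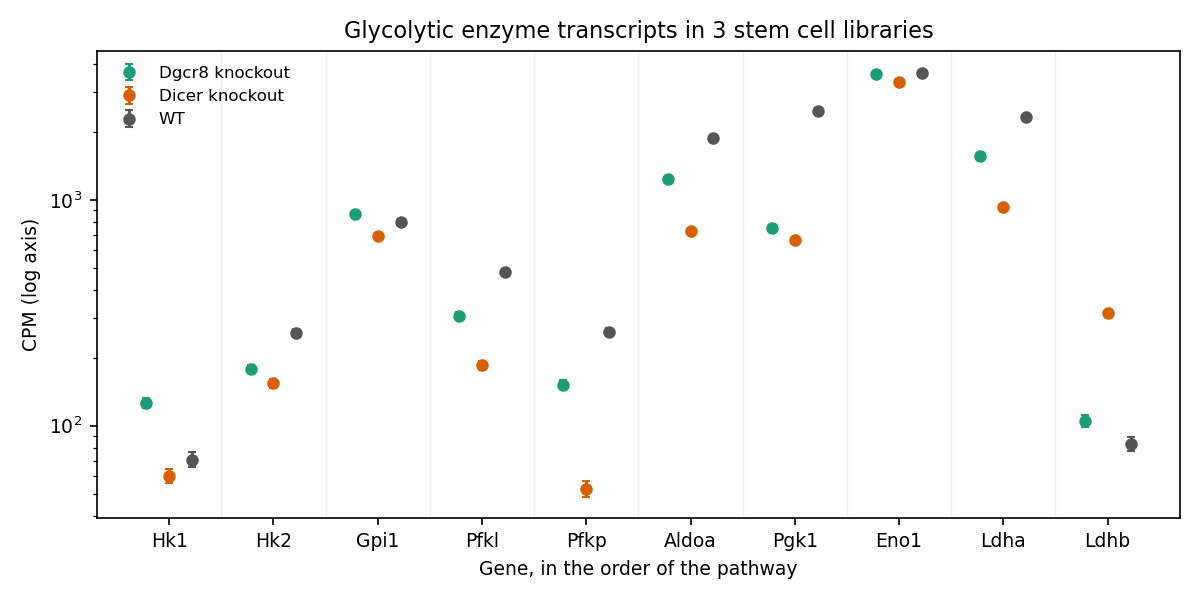
Level of each glycolytic enzyme transcript in CPM (log axis) in the Dgcr8 knockout, Dicer knockout and WT libraries, 1 point per library with an exact Poisson 95% interval for counting error. WT is the highest library for Hk2, Pfkl, Pfkp, Aldoa, Pgk1, Eno1 and Ldha, and the Dicer knockout is the highest for Ldhb.

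Hexokinase catalyses the first step, and its isozymes differed in opposite directions in the Dgcr8 knockout. Hk1, the isozyme of most tissues, had 126 CPM in the Dgcr8 knockout, 60.0 CPM in the Dicer knockout and 70.8 CPM in WT. The Dgcr8 knockout thus stood above the other libraries, 1.78-fold above WT (95% interval 1.62 to 1.95), while the Dicer knockout was 1.18-fold lower than WT (1.06 to 1.31). Hk2, the isozyme typical of muscle and of tumour and embryonic cells, had 178 CPM in the Dgcr8 knockout, 154 CPM in the Dicer knockout and 258 CPM in WT. It was lower in both knockouts, by 1.45-fold (1.36 to 1.53) and 1.67-fold (1.58 to 1.78). Within a library, Hk2 made up 58.6% of the Hk1 and Hk2 counts in the Dgcr8 knockout (56.9 to 60.3), 72.0% in the Dicer knockout (70.2 to 73.7) and 78.5% in WT (77.0 to 79.9). Such shares do not move with the scaling between libraries, but as shares of counts they are not shares of molecules.

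Gpi1, which isomerises glucose-6-phosphate, stayed near its WT level. It had 862 CPM in the Dgcr8 knockout, 693 CPM in the Dicer knockout and 795 CPM in WT. Its ratio to WT was 1.08-fold (1.05 to 1.12) in the Dgcr8 knockout, a direction that turned when libraries were scaled by the median of gene ratios, and it was 1.15-fold lower (1.11 to 1.18) in the Dicer knockout.

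The phosphofructokinase transcripts, which encode the enzyme of the main control point of the pathway, were lower in both knockouts. Pfkl, the liver-type subunit, had 307 CPM in the Dgcr8 knockout, 185 CPM in the Dicer knockout and 480.1 CPM in WT. It was 1.57-fold (1.498 to 1.64) and 2.60-fold (2.47 to 2.73) lower than in WT. Pfkp, the platelet-type subunit, had 1692 counts (152 CPM) in the Dgcr8 knockout, 646 counts (52.5 CPM) in the Dicer knockout and 2589 counts (261 CPM) in WT. It was 1.71-fold lower in the Dgcr8 knockout (1.61 to 1.82) and 4.97-fold lower in the Dicer knockout (4.56 to 5.42). Only 0.677% of genes at 50 CPM or more had a lower log2 ratio in the Dicer knockout than Pfkp. The muscle-type gene Pfkm, outside the 10, stood the other way, with 127 CPM in the Dgcr8 knockout, 89.8 CPM in the Dicer knockout and 52.4 CPM in WT. Of the Pfkl, Pfkm and Pfkp counts, Pfkm made up 21.7% in the Dgcr8 knockout (20.7 to 22.7), 27.5% in the Dicer knockout (26.1 to 28.9) and 6.60% in WT (6.06 to 7.17). Pfkp made up 26.0%, 16.0% and 32.9% in the same order.

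Aldolase and phosphoglycerate kinase transcripts were also lower. Aldoa, which cleaves fructose-1,6-bisphosphate, had 1241 CPM in the Dgcr8 knockout, 725 CPM in the Dicer knockout and 1886 CPM in WT. The order of the libraries was that of Pfkl and Pfkp, with the Dgcr8 knockout 1.52-fold (1.49 to 1.55) and the Dicer knockout 2.60-fold (2.54 to 2.67) lower than WT. Pgk1, which makes the first ATP of the pathway, had 8336 counts (749 CPM) in the Dgcr8 knockout, 8134 counts (661 CPM) in the Dicer knockout and 24657 counts (2483 CPM) in WT. Pgk1 was low by close amounts in both knockouts, 3.31-fold (3.23 to 3.397) and 3.76-fold (3.66 to 3.85) below WT. Among genes at 50 CPM or more, 0.899% had a lower log2 ratio in Dgcr8-/- cells and 1.18% in Dicer-/- cells. Relative to Gapdh, the enzyme of the step before it, Pgk1 had 0.0869 counts per Gapdh count in the Dgcr8 knockout (0.0850 to 0.0889), 0.0956 in the Dicer knockout (0.0935 to 0.0978) and 0.332 in WT (0.327 to 0.337). Pgk1 is X-linked, and X-linked genes at 50 CPM or more had median log2 ratios of -0.20 in Dgcr8-/- cells and -0.16 in Dicer-/- cells, beside -1.73 and -1.91 for Pgk1. The chromosomes of the other members (4, 6, 7, 10 and 13) had medians between 0.03 and 0.33.

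Eno1, which forms phosphoenolpyruvate, differed little, with 3591 CPM in the Dgcr8 knockout, 3333 CPM in the Dicer knockout and 3644 CPM in WT. Its level was 0.985 times that of WT in Dgcr8-/- cells (0.971 to 0.999) and 1.09-fold lower in Dicer-/- cells (1.08 to 1.11). These counts may not be those of Eno1 alone. Eno1b, a near-identical copy listed under an older symbol, had 35568 counts in the Dgcr8 knockout, 30963 in the Dicer knockout and 32146 in WT, beside 39942, 41031 and 36193 for Eno1. No label states how reads that match both copies were counted, so the level of each copy is uncertain.

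The lactate dehydrogenase isozymes differed in opposite directions in both knockouts. Ldha, whose subunit favours the reduction of pyruvate to lactate, had 1558 CPM in the Dgcr8 knockout, 929 CPM in the Dicer knockout and 2320.5 CPM in WT. It was 1.49-fold (1.46 to 1.52) and 2.50-fold (2.44 to 2.56) lower than in WT. Ldhb, whose subunit favours the oxidation of lactate, had 1167 counts (105 CPM) in the Dgcr8 knockout, 3895 counts (316 CPM) in the Dicer knockout and 824 counts (83.0 CPM) in WT. The Dicer knockout was thus 3.81-fold above WT (3.54 to 4.12) and the Dgcr8 knockout 1.26-fold (1.16 to 1.38). Ldhb made up 6.31% of the Ldha and Ldhb counts in the Dgcr8 knockout (5.96 to 6.67), 25.4% in the Dicer knockout (24.7 to 26.1) and 3.45% in WT (3.22 to 3.69).

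**Figure D2:**
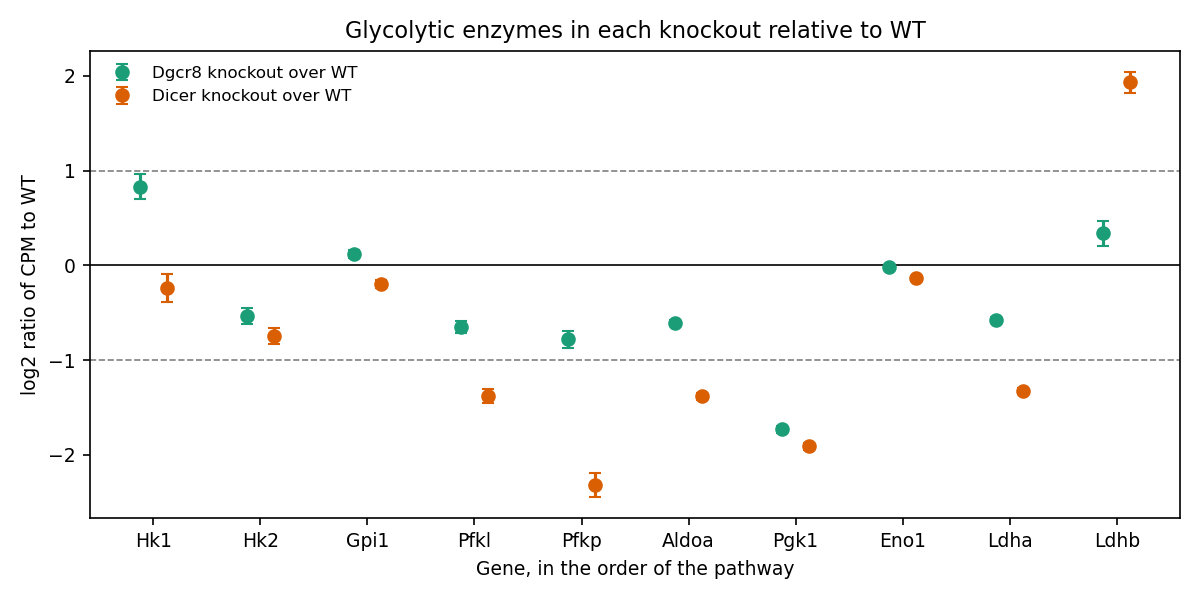
Log2 ratio of CPM in Dgcr8-/- and in Dicer-/- cells to WT for each glycolytic enzyme, with exact conditional binomial 95% intervals for counting error. Dashed lines mark a 2-fold difference; Pgk1 lies below the lower line in both knockouts, and Pfkl, Pfkp, Aldoa and Ldha in the Dicer knockout alone.

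**Figure D3:**
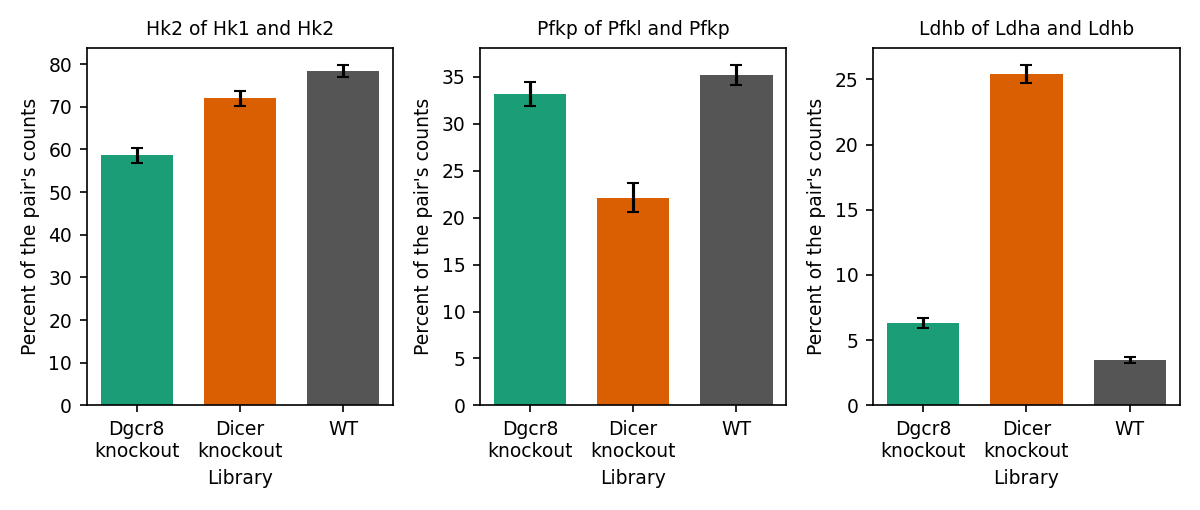
Share of Hk2, Pfkp and Ldhb counts within their isozyme pair in the Dgcr8 knockout, Dicer knockout and WT libraries, in percent, with exact 95% intervals for counting error; the vertical scale differs between panels. Hk2 is lowest in the Dgcr8 knockout (58.6%), and Ldhb is highest in the Dicer knockout (25.4%).

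The comparison of the Dgcr8 knockout with the Dicer knockout does not use the WT library. In it 9 of the 10 were higher in the Dgcr8 knockout, with a median log2 ratio of 0.52 beside 0.00 for all genes. Pfkp was 2.90-fold higher in the Dgcr8 than in the Dicer knockout (2.65 to 3.18) and Hk1 2.10-fold higher (1.92 to 2.29). Ldhb was 3.02-fold lower (2.82 to 3.22). These 3 were the members past a 2-fold difference, 2 higher and 1 lower, while 4.15% of 12986 genes were higher and 5.05% lower. At 1.5-fold, 5 members were higher and 1 lower, beside 12.6% and 12.5% of genes. Aldoa (1.71-fold, 1.67 to 1.76), Ldha (1.68-fold, 1.64 to 1.72) and Pfkl (1.66-fold, 1.57 to 1.75) differed by close amounts between the knockouts. Pgk1 (1.13-fold) and Eno1 (1.08-fold) were nearly level.

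Of 21 other glycolytic enzymes listed, 17 were in the table, with a median log2 ratio to WT of -0.41 in Dgcr8-/- cells and -0.63 in Dicer-/- cells. The 8 of them that reached 50 CPM had medians of 0.09 and -0.26, beside 0.12 and 0.09 for all genes at that level. The lower medians rest in part on less abundant genes, and without them the median in Dgcr8-/- cells was close to that of all genes. At 2-fold, 2 were lower and 3 higher in the Dgcr8 knockout (8.02% and 14.3% of all genes), and 6 were lower and 0 higher in the Dicer knockout (9.7% and 16.0% of all genes). Gapdh had 8620 CPM in the Dgcr8 knockout, 6911 CPM in the Dicer knockout and 7474 CPM in WT, and the triose isomerase gene Tpi1 had 775 CPM, 495 CPM and 548 CPM in that order. Both were therefore close to WT in the Dicer knockout. Pgam1, the phosphoglycerate mutase after Pgk1, had 1080 CPM, 812 CPM and 1768 CPM, and was 1.64-fold (1.60 to 1.68) and 2.18-fold (2.12 to 2.23) lower in the Dgcr8 and Dicer knockouts. The pyruvate kinase gene Pkm was 1.42-fold (1.40 to 1.44) and 1.62-fold (1.60 to 1.64) lower, without a split into its splice forms. The neuronal enolase Eno2 had 22, 7 and 88 counts, while the muscle enolase Eno3 had 743, 678 and 272 counts. Among the enzymes lower in the Dicer knockout, those that passed the floor of 1 CPM through WT alone, and so had to stand lower, include Eno2, Pklr and Ldhc. The same holds in the Dgcr8 knockout for Ldhc, 1 of the 2 lower there, with 0.180 CPM beside 1.61 CPM in WT. It also holds there for Pklr, below 2-fold, with 0.809 CPM beside 1.41 CPM. Such genes lower the medians of all 17.

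The carriers that bring glucose in and take lactate out stood in the same direction, with all 7 in the table below WT in both knockouts. The median log2 ratio was -0.37 in Dgcr8-/- cells and -0.67 in Dicer-/- cells, beside 0.11 and 0.10 for all genes. Most of these differences were below 2-fold. With Dgcr8 knocked out 1 of the 7 carriers was lower by that much, with Dicer knocked out 2 were, and 0 were higher in either. Among all genes 8.02% and 9.7% were lower by 2-fold, and 14.3% and 16.0% higher. Slc2a1, the glucose carrier GLUT1, had 6648 counts in the Dgcr8 knockout, 3794 in the Dicer knockout and 16491 in WT. It was 2.78-fold (2.70 to 2.86) and 5.39-fold (5.20 to 5.58) lower. The glucose carrier Slc2a3 was 1.30-fold (1.27 to 1.33) and 1.86-fold (1.81 to 1.91) lower, and the lactate carrier Slc16a3 1.51-fold (1.40 to 1.63) and 4.12-fold (3.71 to 4.59) lower. Slc16a1, another lactate carrier, was at -0.19 and -0.36 on the log2 scale.

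Other hypoxia-inducible genes, a list of HIF targets outside glycolysis, had medians close to those of the 10 enzymes, -0.53 in Dgcr8-/- cells and -1.14 in Dicer-/- cells. The 10 of them that reached 50 CPM had medians of -0.35 and -1.09, so the closeness in Dgcr8-/- cells rests in part on less abundant genes. Of the 15, 3 were at least 2-fold lower in Dgcr8-/- cells and 11 in Dicer-/- cells, and 1 was higher in each, beside 8.02% and 9.7% of all genes lower and 14.3% and 16.0% higher. Car9 and Adm passed the floor of 1 CPM through WT alone and so had to stand lower; Adm is among the 11. Ankrd37 had 68, 27 and 203 counts in the Dgcr8 knockout, the Dicer knockout and WT. The growth factor gene Vegfa had 236, 79 and 412 counts, and the collagen prolyl hydroxylase gene P4ha2 had 123, 73 and 334. Each of these was lowest in the Dicer knockout. The gene higher by 2-fold was the histone demethylase Kdm3a, 2.44-fold (2.26 to 2.65) and 2.10-fold (1.94 to 2.28) higher. Hif1a, the oxygen-sensitive subunit of HIF-1, had 79.0 CPM in the Dgcr8 knockout, 110 CPM in the Dicer knockout and 79.2 CPM in WT. HIF protein was not measured, and oxygen and cell density of the cultures are not given.

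The transcriptional regulators included genes with larger differences in both directions. Mbd2 had 509 counts in the Dgcr8 knockout, 580 in the Dicer knockout and 108 in WT, 4.21-fold (3.41 to 5.23) and 4.33-fold (3.52 to 5.37) above WT. Myc had 65, 72 and 260 counts in the same order, 4.48-fold lower in both (3.402 to 5.97 and 3.44 to 5.89). Its paralogue Mycn stood the other way, with 2097, 3470 and 613 counts, 3.05-fold (2.79 to 3.35) and 4.57-fold (4.19 to 4.98) higher. Lin28a, an RNA-binding regulator of let-7 and of metabolism, was at -2.30 and -1.73 on the log2 scale, and Lin28b at 1.76 and 2.23. Of the 12 regulators, 3 were at least 2-fold higher and 2 lower in each knockout, while 14.3% and 16.0% of all genes were higher and 8.02% and 9.7% lower.

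**Figure D4:**
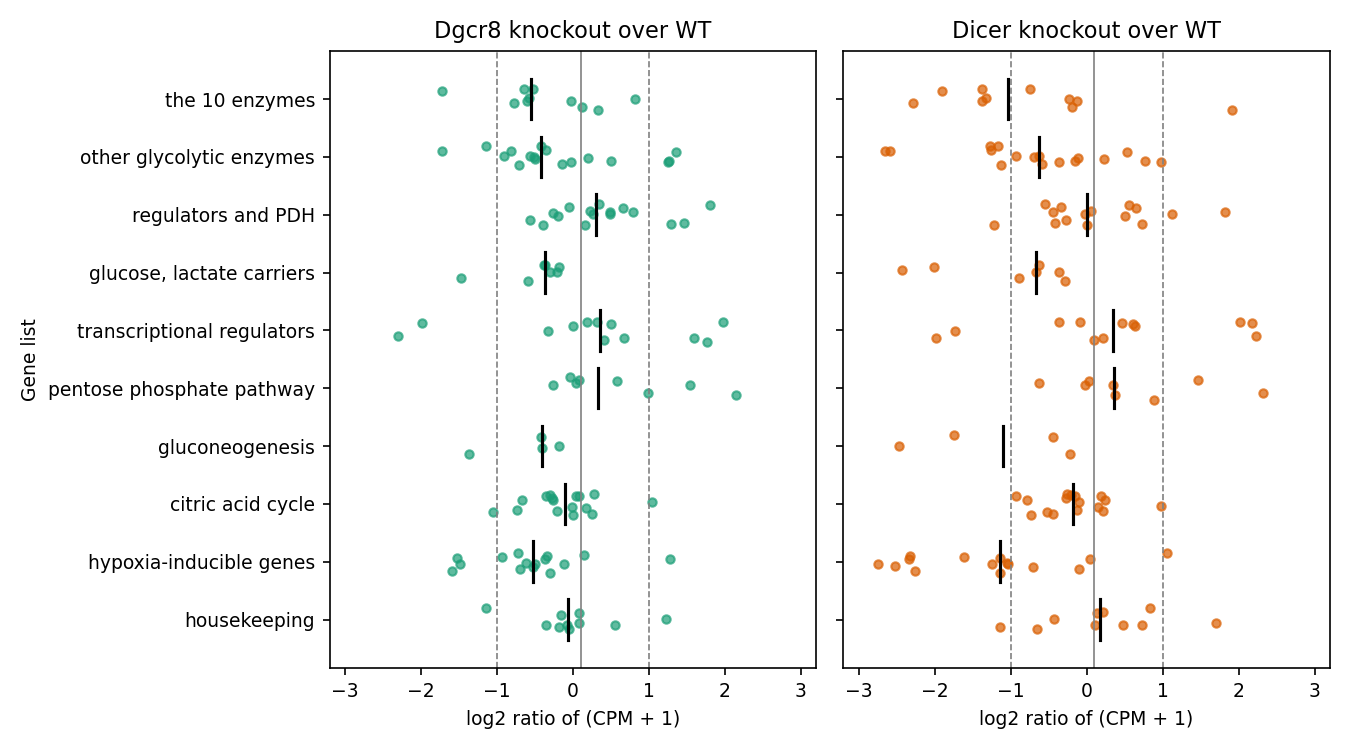
Log2 ratio of (CPM + 1) in the Dgcr8 knockout and the Dicer knockout to WT for each gene of the 10 lists, 1 point per gene that reached 1 CPM; black ticks mark list medians, the grey line the median of all genes and dashed lines a 2-fold difference. The 10 enzymes and the hypoxia-inducible genes have medians of -1.03 and -1.14 in the Dicer knockout, while the citric acid cycle median is -0.18.

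Genes that control the fate of pyruvate and sugar phosphates were too few for their 2-fold calls to be set apart from the shares of all genes. The regulators and pyruvate dehydrogenase genes had median log2 ratios to WT of 0.30 in Dgcr8-/- cells and 0.00 in Dicer-/- cells. For the 7 of them at 50 CPM these were 0.16 and 0.50, beside 0.12 and 0.09 for all genes at that level. The 8 pentose phosphate genes had medians of 0.33 and 0.36, and of 0.09 and 0.19 for those at 50 CPM. Among 16 regulators of glycolysis and pyruvate dehydrogenase genes, 3 stood higher and 0 lower by 2-fold in Dgcr8-/- cells, and 2 higher and 1 lower of 15 at 1 CPM in Dicer-/- cells, where 14.3% and 16.0% of all genes were higher and 8.02% and 9.7% lower. Tigar, a phosphatase that removes fructose-2,6-bisphosphate, was 2.48-fold (2.20 to 2.79) and 2.21-fold (1.97 to 2.49) higher, and the pyruvate dehydrogenase kinase Pdk4 4.17-fold (2.91 to 6.13) and 4.23-fold (2.96 to 6.19) higher. Pdk1, a HIF-inducible kinase of the same family, was 1.74-fold (1.62 to 1.88) and 1.66-fold (1.54 to 1.79) higher. In the pentose phosphate pathway, which branches off at glucose-6-phosphate, 2 of 8 were at least 2-fold higher in each knockout and 0 lower, against those same shares of all genes, too few to set the pathway apart. Rpia, the ribose-5-phosphate isomerase, had 325, 410 and 58 counts in the Dgcr8 knockout, the Dicer knockout and WT, and Pgd, the 6-phosphogluconate dehydrogenase, had 3738, 5764 and 1670. The 16 citric acid cycle genes had medians of -0.11 and -0.18. Citrate synthase, Cs, was 2.07-fold (1.97 to 2.17) and 1.98-fold (1.89 to 2.08) higher, and the succinate dehydrogenase subunit Sdhd 2.09-fold (1.93 to 2.26) and 1.91-fold (1.78 to 2.06) lower.

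The 250 bases before the start of 4 members are printed because these are the lowest in a knockout (Pgk1, Pfkp), the lactate-forming dehydrogenase (Ldha) and the member higher by 2-fold in the Dicer knockout (Ldhb). They come from RefSeq on GRCm38.p6, and for Ldha, with several starts, the window furthest upstream is given. Capitals mark ACGTG or GCGTG on either strand, the core letters of the HIF motif. Where both strands match over the same bases this reads CACGTG, the E-box bound by MYC.
Pgk1, chrX:106186850-106187099, plus strand: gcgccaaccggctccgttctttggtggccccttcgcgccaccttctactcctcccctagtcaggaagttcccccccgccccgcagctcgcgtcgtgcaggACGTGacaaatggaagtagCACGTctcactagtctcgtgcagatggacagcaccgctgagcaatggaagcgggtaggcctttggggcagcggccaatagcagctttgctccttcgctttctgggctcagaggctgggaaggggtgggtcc
Pfkp, chr13:6648772-6649021, minus strand: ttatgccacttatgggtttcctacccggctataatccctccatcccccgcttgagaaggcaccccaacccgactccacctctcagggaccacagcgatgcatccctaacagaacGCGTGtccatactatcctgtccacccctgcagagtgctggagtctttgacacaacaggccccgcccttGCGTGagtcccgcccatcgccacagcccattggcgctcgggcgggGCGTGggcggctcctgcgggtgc
Ldha, chr7:46845554-46845803, plus strand: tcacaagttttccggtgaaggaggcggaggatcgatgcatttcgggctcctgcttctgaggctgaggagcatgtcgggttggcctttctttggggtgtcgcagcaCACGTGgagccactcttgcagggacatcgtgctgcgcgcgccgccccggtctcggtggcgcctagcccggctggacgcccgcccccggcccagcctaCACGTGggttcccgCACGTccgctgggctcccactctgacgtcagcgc
Ldhb, chr6:142507958-142508207, minus strand: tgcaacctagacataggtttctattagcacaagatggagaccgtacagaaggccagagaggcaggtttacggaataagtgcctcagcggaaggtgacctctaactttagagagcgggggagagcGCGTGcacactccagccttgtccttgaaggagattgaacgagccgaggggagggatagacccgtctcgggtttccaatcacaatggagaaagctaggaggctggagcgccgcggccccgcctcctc
The core letters were in all 4 windows, those of the lowest members and of Ldhb alike. Of the 16 windows of the 10 members, 13 held them, and of all 32851 promoter windows of this length 38.6% did. Windows of 1 gene can overlap, and 7 of the 10 members had the letters in the window furthest upstream. CACGTG was in 1 of the 16 member windows, that of Ldha printed here, which had 2 copies, and in 6.02% of all windows. Such a match is a description of letters and not of binding.

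Among 4727 genes outside the lists with 50 CPM or more in a library, the 5 whose log2 ratios to WT lay nearest to the medians of the 10 enzymes were Rfc2, Orc6, Nans, Ttk and Itga3. The measure was the Euclidean distance over both ratios, from 3 libraries, and ranged up to 0.0303. The ratios of Rfc2 were -0.56 in Dgcr8-/- cells and -1.03 in Dicer-/- cells. Likeness over 3 libraries describes these libraries only.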

How the data were processed

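Per the labels' protocols, mRNA libraries were stranded and came from polyA-selected RNA, and the small RNA library came from WT total RNA. Bowtie and build mm9 appear in the submitters' processing notes. How reads were counted, on which annotation, with or without strand and with what rule for several matches, is not given in the sources used. The deposited tables hold whole-number counts per RefSeq entry (13815 rows) and per mature miRNA (707 rows). Empty cells, 221 in the Dgcr8 knockout, 138 in the Dicer knockout and 252 in WT, were read as 0, and every row reaches 10 counts in a library. Counts of 2 to 9 were even in 69.6% to 74.8% of cases, which happens if both mates count, and intervals would then be too narrow; counts divided by 2 were tried.

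CPM were computed from each library's summed counts. Log2 ratios used a pseudocount of 1, which understates the change of low genes, for genes reaching 1 CPM in at least 1 library of a pair, with calls at 2-fold. Ratios of named genes are of CPM, with exact conditional binomial 95% intervals. Shares have Clopper-Pearson intervals. Reads copied by PCR are not separate molecules, which no interval covers. No test was possible at 1 library a group. The calls were tried on simulated Poisson counts in which 200 genes were changed 4-fold. Variation between cultures was not simulated, so this does not show how often calls at 2-fold are false. Software was Python 3.11.15, scipy 1.17.1, and edgeR 4.0.16 in R 4.3.3 for TMM factors. Genes were matched by symbol or by the current symbol of their entry, and chromosomes were read from GRCm38.p6 without coordinates. Of 14 cluster miRNAs, 10 matched a RefSeq sequence by name.

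The members and the gene lists were chosen with earlier results of these data known. Named were all members, up to 4 genes of each list with the largest ratios, the neighbours of the members in the pathway and the 5 nearest patterns; Pfkm, Slc16a1, Pdk1, Car9, Adm, Pklr, Ldhc and Eno1b were named after their values were seen. The values of 1 list gene are not reported here, though its list's counts and medians include it.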

Additional observations from a re-analysis of the deposited data

Results flagged for a closer look

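Among the 10 enzymes, 2 stood on opposite sides of WT in the knockouts, with counting intervals that exclude equality in both. Hk1 had a log2 ratio to WT of 0.82 in Dgcr8-/- cells and -0.23 in Dicer-/- cells. Gpi1 had 0.12 in Dgcr8-/- cells and -0.20 in Dicer-/- cells, and its first value was -0.02 under median-ratio scaling. Each value comes from 1 library per genotype and both use the same WT library; the difference was not tested against replicates.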

How the results depend on the processing

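No paired analysis was possible because each group has 1 library, and for the same reason no replicate could be left out. Under median-ratio and TMM scaling the median of all genes moved by -0.13 and -0.11 in the Dgcr8 knockout and by -0.11 and -0.10 in the Dicer knockout against WT, and by less than these between the knockouts. The members called at 2-fold were the same genes under both scalings, without glycolytic enzymes in the total, with a pseudocount of 0.1 or 5, and with no filter or filters at 5 CPM and, chosen after seeing the data, 50 CPM. The size rule moved the counts. At 1.5-fold, 4 members were lower and 1 higher in the Dgcr8 knockout against WT, and 5 were higher in the Dgcr8 than in the Dicer knockout. At 4-fold, 0 were lower in the Dgcr8 knockout, 1 was lower and 0 higher in the Dicer knockout, and 0 were higher and 0 lower between the knockouts. Of all genes, 159 of 13223 were 4-fold lower and 342 higher in the Dgcr8 knockout. In the Dicer knockout 233 of 13403 were lower and 539 higher. Between the knockouts, 63 of 12986 were higher in the Dgcr8 knockout and 114 lower. Over all genes, higher genes made up 64.1% of the Dgcr8 knockout calls, and 53.6% under median-ratio scaling. Of the 60 log2 ratios of members recomputed under the 2 scalings, 34 moved by more than their counting interval, 33 of them among the 40 against WT, and 1, that of Gpi1, changed sign. Other pseudocounts and a total without glycolytic enzymes moved 0 that far; the size rules and filters cannot move such a ratio. The summed share of the members without ribosomal protein genes in the total was 0.970% in the Dgcr8 knockout, 0.787% in the Dicer knockout and 1.41% in WT. Without the member with most counts in each library it was 0.528%, 0.378% and 0.864% in that order. The miR-290 cluster share was 81.5% of the 50 most abundant miRNAs, and 25.9% for the 4 miRNAs with a matched sequence that has AAGUGC in bases 1 to 8. Cluster miRNAs without a matched sequence, among them miR-292-3p with 7.64% of reads, could not enter that 25.9%, which is therefore not a full seed share. With Pfkm in the sum, chosen after seeing the data, the Pfkp share was 26.0%, 16.0% and 32.9% in the Dgcr8 knockout, the Dicer knockout and WT, against 33.2%, 22.1% and 35.2% without it. Shares per length were not run, since transcript lengths were not used here. With counts divided by 2, the interval of Eno1 in the Dgcr8 knockout against WT was 0.966 to 1.01, and those of the other members still excluded equality. Depth limits genes such as Eno2, at 7 to 88 counts, but not the members.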

Other observations

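Genes of gluconeogenesis, the reverse route, were few in these cells, with 4 of 7 listed genes in the table. Pcx, the pyruvate carboxylase, had 24.5 CPM in the Dgcr8 knockout, 18.5 CPM in the Dicer knockout and 64.6 CPM in WT. Fbp2, a fructose-1,6-bisphosphatase, had 65, 8 and 81 counts in that order. Pck2, the mitochondrial form of phosphoenolpyruvate carboxykinase, was at -0.19 and -0.21 on the log2 scale against WT.

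Of 10 genes often used for normalisation, 1 was at least 2-fold higher and 1 lower than in WT in each knockout. Among all genes 14.3% were higher and 8.02% lower by 2-fold in the Dgcr8 knockout, and 16.0% and 9.7% in the Dicer knockout. Actb was 2.33-fold higher (95% interval 2.28 to 2.39) in the Dgcr8 knockout and 3.26-fold higher (3.19 to 3.33) in the Dicer knockout than in WT, and Hprt was 2.21-fold (2.07 to 2.36) and 2.22-fold (2.08 to 2.36) lower. The 10 housekeeping genes had median log2 ratios of -0.06 and 0.17.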
